A study of Mus musculus with 30 samples.

Results

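The comparison described here set fibroblasts with a MyoD that cannot be acetylated against fibroblasts with wild-type MyoD, 12 h after both were moved to differentiation medium with beta-estradiol. It used 6 of the 30 arrays of the series, chosen by their titles, 3 labelled as mutant MyoD and 3 as wild-type MyoD, and covered 18193 genes. The cells of all groups were mouse embryonic fibroblasts (MEFs) from MyoD-/-/Myf5-/- animals, which lack the endogenous MyoD and Myf5 genes, so that the retrovirus was the intended source of MyoD. In the ER-MyoD RRR group the retrovirus carried the hormone-binding domain of the estrogen receptor joined to mouse MyoD with point mutations at lysines 99, 102 and 104. In the ER-MyoD wt group the same fusion carried unmutated MyoD, and in the empty retrovirus group, used below as a background, the virus had no ER-MyoD insert. All 3 groups had 3 arrays at 12 h and received the same medium and hormone. RNA came from whole cultures, and the labels give neither the share of cells that had taken up the virus nor whether replicates were grown apart. The spread between arrays, on which every p-value rests, may therefore be technical. In such bulk samples, fewer cells expressing a gene and less RNA of it per cell cannot be told apart.

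MyoD is a basic helix-loop-helix transcription factor that starts the skeletal muscle programme, even in fibroblasts, by binding E-boxes (CANNTG) in muscle genes together with a partner E protein. It switches on later regulators such as myogenin and the Mef2 factors, and with them the genes of the contractile apparatus. The acetyltransferases p300 and PCAF are known to act with MyoD, and PCAF acetylates lysines at the border of its DNA-binding domain. A fusion with the estrogen receptor domain stays inactive until hormone is given, so that the addition of beta-estradiol sets the start of MyoD activity.

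The deposited values were linear signal intensities, 1 per probe set and array, already scaled so that each array had a trimmed mean of 150. Signals below are these deposited values. Differences are log2 values, ER-MyoD RRR minus ER-MyoD wt, of quantile-normalised log2(signal + 16), given with their standard error, and they understate the change of dim genes. Adjusted p-values are from limma with Benjamini-Hochberg adjustment over all 18193 genes, with 0.05 as the threshold for passing. On the 6 arrays, medians were 41.4 to 44.4 in ER-MyoD RRR and 41.6 to 45.2 in ER-MyoD wt, and the 3′ to 5′ signal ratio of Gapdh was 0.826 to 1.11 in ER-MyoD RRR and 0.843 to 1.14 in ER-MyoD wt. That of Actb was 1.14, 1.74 and 1.54 in ER-MyoD RRR and 1.13, 1.13 and 2.07 in ER-MyoD wt, highest in wt replicate 3, without which the counts are given below. Across genes, arrays of one group correlated at 0.964 to 0.971 and arrays of different groups at 0.956 to 0.965, and each of the 6 was nearest to an array of its own group. An array of each of 3 other groups stood apart from its group: ER-MyoD RRR 6 h replicate 2 by its 3′ to 5′ ratios, and empty retrovirus 12 h replicate 1 and ER-MyoD wt 24 h replicate 3 by their medians. All 10 embryonic fibroblast markers had mean signals of at least 50 in each 12 h group.

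The brighter probe set for Myod1 gave signals of 820, 298 and 486 in ER-MyoD RRR, of 877, 1061 and 468 in ER-MyoD wt, and of 174, 176 and 195 with the empty retrovirus. Both ER-MyoD groups lay above the empty retrovirus and overlapped each other, with a difference of -0.61 ± 0.35 (SE) that did not pass (adjusted p = 0.594, n = 3 each). With single arrays left out it ranged from -0.96 to -0.28. A dim second probe set for Myod1 went the other way without passing, at means of 24.5 in ER-MyoD RRR and 12.4 in ER-MyoD wt (0.52). The mean of all Myod1 probe sets was -0.05. These signals measure RNA, not the amount of fusion protein, which was not analysed here. Myf5, the other deleted factor, gave 152, 199 and 288 in ER-MyoD RRR, 304, 214 and 401 in ER-MyoD wt and 324, 703 and 456 with the empty retrovirus, with ER-MyoD RRR and ER-MyoD wt overlapping (-0.49 ± 0.28, adjusted p = 0.597). These signals were well above the array medians in cells labelled as lacking the gene. Where the Myod1 and Myf5 probe sets lie relative to the deleted parts was not looked up here, so neither checks the deletion.

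To show where MyoD could meet some of the genes described below, the 250 bases before the start of 5 of them are printed 5′ to 3′ on the strand of the gene, from RefSeq on GRCm38.p6, with every E-box (CANNTG) in capitals. They are the promoters of myogenin, cardiac and slow troponin C, the acetylcholine receptor gamma subunit and M-cadherin, which were lower in ER-MyoD RRR, and of stromelysin 1 (Mmp3), which was higher. All lie on the plus strand, at chr1:134289754-134290003 for Myog, chr14:31208062-31208311 for Tnnc1, chr1:87205561-87205810 for Chrng, chr8:122848124-122848373 for Cdh15 and chr9:7445572-7445821 for Mmp3.
Myog: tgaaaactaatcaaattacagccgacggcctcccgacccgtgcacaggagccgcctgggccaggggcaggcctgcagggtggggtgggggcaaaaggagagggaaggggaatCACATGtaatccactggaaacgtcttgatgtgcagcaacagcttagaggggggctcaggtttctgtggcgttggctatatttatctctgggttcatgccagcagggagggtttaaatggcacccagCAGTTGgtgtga
Tnnc1: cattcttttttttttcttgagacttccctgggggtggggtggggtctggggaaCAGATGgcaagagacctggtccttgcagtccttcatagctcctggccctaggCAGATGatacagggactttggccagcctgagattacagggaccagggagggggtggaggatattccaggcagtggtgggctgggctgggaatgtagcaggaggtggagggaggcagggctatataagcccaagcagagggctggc
Chrng: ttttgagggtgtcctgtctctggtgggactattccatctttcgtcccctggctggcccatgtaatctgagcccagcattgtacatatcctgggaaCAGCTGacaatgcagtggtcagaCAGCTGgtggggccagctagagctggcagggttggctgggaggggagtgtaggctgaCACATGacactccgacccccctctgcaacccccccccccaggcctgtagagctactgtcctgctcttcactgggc
Cdh15: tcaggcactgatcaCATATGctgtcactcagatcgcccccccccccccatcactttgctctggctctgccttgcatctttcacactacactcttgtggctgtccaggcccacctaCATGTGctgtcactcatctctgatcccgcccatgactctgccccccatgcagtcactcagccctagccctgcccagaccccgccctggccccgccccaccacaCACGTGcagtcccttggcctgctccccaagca
Mmp3: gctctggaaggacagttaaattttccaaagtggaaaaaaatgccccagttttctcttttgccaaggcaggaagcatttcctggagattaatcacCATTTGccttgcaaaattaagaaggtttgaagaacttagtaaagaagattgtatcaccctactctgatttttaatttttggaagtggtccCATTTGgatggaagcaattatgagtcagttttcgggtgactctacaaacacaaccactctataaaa
Every one of the 5 windows held at least 2 E-boxes. Those of Chrng included CAGCTG at 155 and 132 bases before the start, the form of E-box often found under MyoD. The table held promoters for 14367 of the 18193 genes, 128 of the 160 lower and 116 of the 159 higher ones. In windows from 250 bases before to 50 after each start, CANNTG was found in 75.6% of the windows of lower genes, 62.9% of those of higher genes and 67.4% of all windows. CAGCTG, which is one case of CANNTG, was in 24.4% of the windows of lower genes, 14.6% of those of higher genes and 16.4% of all. CAGGTG or its reverse CACCTG, also cases of CANNTG, were in 22.6%, 18.5% and 20.0% in the same order, and a loose form of the Mef2 motif in 3.57%, 3.31% and 3.4%. Both strands were searched, and these shares are descriptions with no test.

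At 12 h, 319 genes (1.75% of those tested) differed, 159 (0.874%) higher and 160 (0.879%) lower in ER-MyoD RRR than in ER-MyoD wt, and 54 of the higher and 60 of the lower ones differed at least 2-fold. In the gene lists described below, the muscle, smooth muscle and sterol synthesis members that passed were nearly all lower, and the fibroblast identity, chemokine and protease members that passed were all higher. Every count of list members below is to be read against the shares of all genes, 0.874% higher and 0.879% lower. At an unadjusted p under 0.05, 1975 genes differed, and the 3 arrays of one group lay wholly above those of the other for 3196 genes (17.6%), with ER-MyoD RRR above in 8.99% and below in 8.58%. Centring arrays on their medians in place of quantile normalisation gave 65 higher and 63 lower genes, and weighting arrays by quality gave 297 and 287. With single arrays left out, called RRR replicate and wt replicate from here on, leaving out RRR replicate 1, 2 or 3 gave 100, 83 or 88 higher and 106, 103 or 99 lower genes, and leaving out wt replicate 1, 2 or 3 gave 70, 87 or 117 higher and 81, 107 or 109 lower. Of 90 named genes that passed, 86 were tested under all 17 alternative settings, and 27 of them kept their call in each: Actg2, Tnnc1, Plpp7, Myog, Cryab, Mycl, Hes6, Eno3, Cdh15, Tagln, Lss, Igf1, P4ha2 and Idi2 among the lower, and Dkk2, Meak7, Kitl, Dcn, Mmp3, Dynap, Ccl2, Pcdh7, Vcam1, Id3, Prrx1, Dpt and Ccl7 among the higher. A filter on mean signal removed the other 4 (Slc22a4, Wnt4, Asb10 and Chrnd), and all of these but Chrnd kept their call under the remaining 16 settings.

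**Figure D1:**
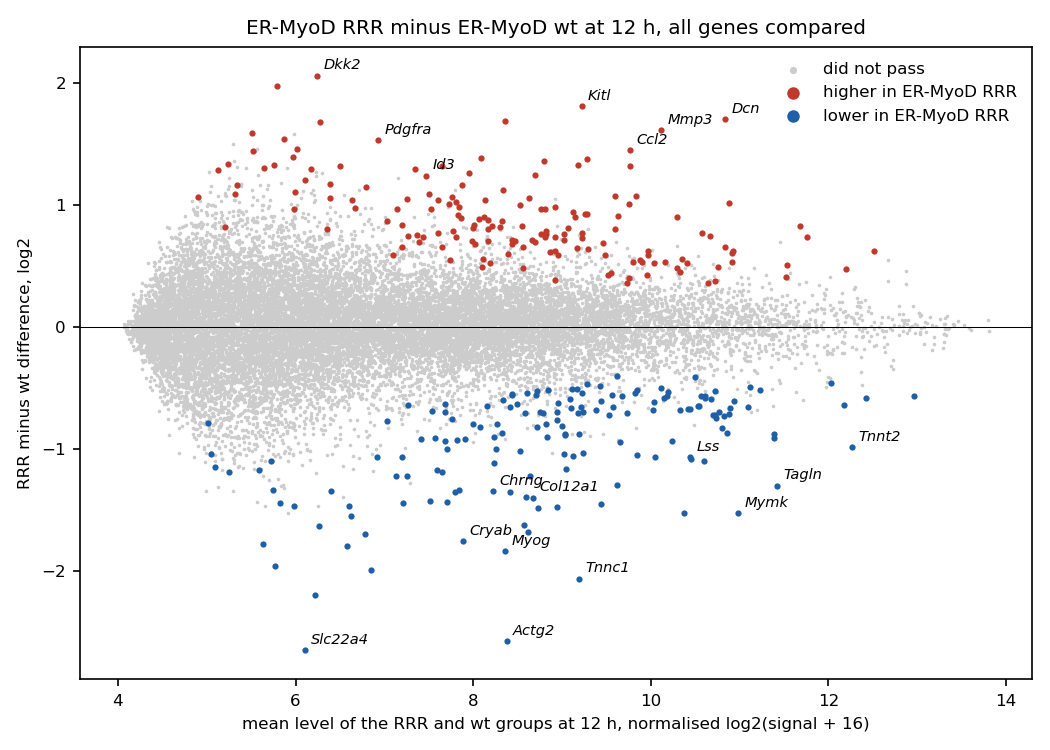
Log2 difference between ER-MyoD RRR and ER-MyoD wt at 12 h (vertical axis) against the mean log2 signal over the 6 arrays (horizontal axis), 1 point per gene, with genes that passed the test coloured. The 159 higher and 160 lower genes lie on both sides over most of the signal range, and Slc22a4, Actg2 and Tnnc1 reach below -2 while Dkk2 lies above 2.

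Muscle regulators were lower where they differed: 4 of 30 measured passed, all lower, with a list median of -0.11 against 0.01 over all genes. Myogenin (Myog), the factor that MyoD activates to drive terminal differentiation, had signals of 162, 128 and 185 in ER-MyoD RRR, against 669, 562 and 609 in ER-MyoD wt and 10.7, 7.08 and 3.71 with the empty retrovirus. The 3 groups did not overlap, and the difference of -1.84 ± 0.22 passed (adjusted p = 6.3e-06). Hes6, a helix-loop-helix protein that promotes myogenesis, was at 198, 149 and 220 in ER-MyoD RRR and at 444, 422 and 414 in ER-MyoD wt, a difference of -1.12 ± 0.16 (adjusted p = 0.000114). The LIM-domain protein Fhl1 fell by 1.39 ± 0.15 (adjusted p = 1.55e-06), though the mean of all its probe sets was -0.53 and did not pass (adjusted p = 0.296). Celf2, a splicing regulator, fell by 0.53 ± 0.14 (adjusted p = 0.0428), a call that ended when any 1 of the 6 arrays was left out (adjusted p = 0.0563 to 0.251). Outside the list, Mycl, a member of the Myc family, averaged 202 in ER-MyoD RRR and 663 in ER-MyoD wt and fell by 1.62 ± 0.25 (adjusted p = 0.000226).

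Several regulators that wild-type MyoD raised over the empty retrovirus did not pass between ER-MyoD RRR and ER-MyoD wt. Mef2a, a partner of MyoD at muscle genes, had signals of 1498, 1275 and 1442 in ER-MyoD RRR, of 1852, 2114 and 1436 in ER-MyoD wt and of 449, 221 and 265 with the empty retrovirus, with a difference of -0.34 ± 0.25 (adjusted p = 0.743). The retinoblastoma gene Rb1, needed for lasting cell cycle exit of muscle cells, gave -0.29 ± 0.23 (adjusted p = 0.766), and the cyclin-dependent kinase inhibitor Cdkn1a gave -0.59 ± 0.17 (adjusted p = 0.0641). Cdkn1a did pass, as lower, among genes with a mean signal of at least 50 (adjusted p = 0.0369) and with array quality weights (0.0205). It also passed with a replicate block (0.0152) and without the 3 arrays that stood apart (0.03). Mef2c was at 64.7, 70.2 and 64.6 in ER-MyoD RRR and at 90.0, 65.4 and 67.0 in ER-MyoD wt, near its level with the empty retrovirus of 79.5, 65.8 and 94.5. These misses do not show that the genes were alike: the differences of Cdkn1a and Rb1 were measured with standard errors of 0.17 and 0.23. Ccnd3, the D cyclin that stays on in differentiating muscle, was the 1 of 20 cell cycle exit genes that passed, at 1233, 804 and 903 in ER-MyoD RRR and 2402, 2102 and 1804 in ER-MyoD wt (-1.08 ± 0.19, adjusted p = 0.000804). The mean of all its probe sets gave -0.66 (adjusted p = 0.145).

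The troponins and tropomyosins, which let calcium control the thin filament, had 4 of 12 members lower and none higher, with a median of -0.57. Tnnc1, the calcium-binding troponin of heart and slow muscle, had signals of 247, 304 and 269 in ER-MyoD RRR, against 1105, 1108 and 1508 in ER-MyoD wt and 106, 101 and 102 with the empty retrovirus. It fell by 2.06 ± 0.15 (adjusted p = 1.11e-09), and its ER-MyoD RRR arrays lay between the other groups without overlap. Tnnt2, the embryonic and cardiac troponin T, was at 2997, 3568 and 3939 in ER-MyoD RRR and at 6686, 6161 and 7647 in ER-MyoD wt, while the empty retrovirus gave 7.0, 35.6 and 33.1. Its difference of -0.99 ± 0.23 passed (adjusted p = 0.023), so it was lower than with wild-type MyoD yet far above the empty retrovirus. Tnnt1, the slow troponin T, fell by 1.55 ± 0.27 (adjusted p = 0.000974), and Tpm1 by 0.75 ± 0.16 (adjusted p = 0.00748). Among sarcomeric actins and myosins 2 of 23 passed, both actins and both lower: Actc1, the cardiac actin that embryonic muscle also uses, at 451, 563 and 473 in ER-MyoD RRR and 1211, 1171 and 1435 in ER-MyoD wt (-1.30 ± 0.28, adjusted p = 0.012), and Acta1, skeletal actin (-1.43 ± 0.38, adjusted p = 0.0472). No myosin of the list passed. Myh3, the embryonic myosin heavy chain, had signals of 6.02, 24.3 and 2.64 in ER-MyoD RRR and 43.1, 17.1 and 2.56 in ER-MyoD wt, and Ckm, muscle creatine kinase, 10.9, 17.0 and 6.72 in ER-MyoD RRR and 14.5, 41.9 and 47.0 in ER-MyoD wt, dim values that did not pass (adjusted p = 0.867 and 0.379). Single arrays ended some of these calls: Tnnt2 without any array but RRR replicate 3 (adjusted p up to 0.111), Actc1 without RRR replicate 1 or 3 or wt replicate 3 (up to 0.0649), Tpm1 without RRR replicate 2 or 3 or wt replicate 1 (up to 0.0565) and Acta1 without any 1 of the 6 (0.061 to 0.207). Other probe sets of Tnnt2 were at -1.15 and -1.02 (adjusted p over probe sets = 1.91e-05 and 0.432). The mean of all Tnnt2 probe sets passed (-1.05, adjusted p = 0.000219), but Tnnt2 did not pass with median centring (0.137) or a pseudocount of 1 (0.378). For Tpm1 the mean of all probe sets did not pass (-0.45, adjusted p = 0.52).

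**Figure D2:**
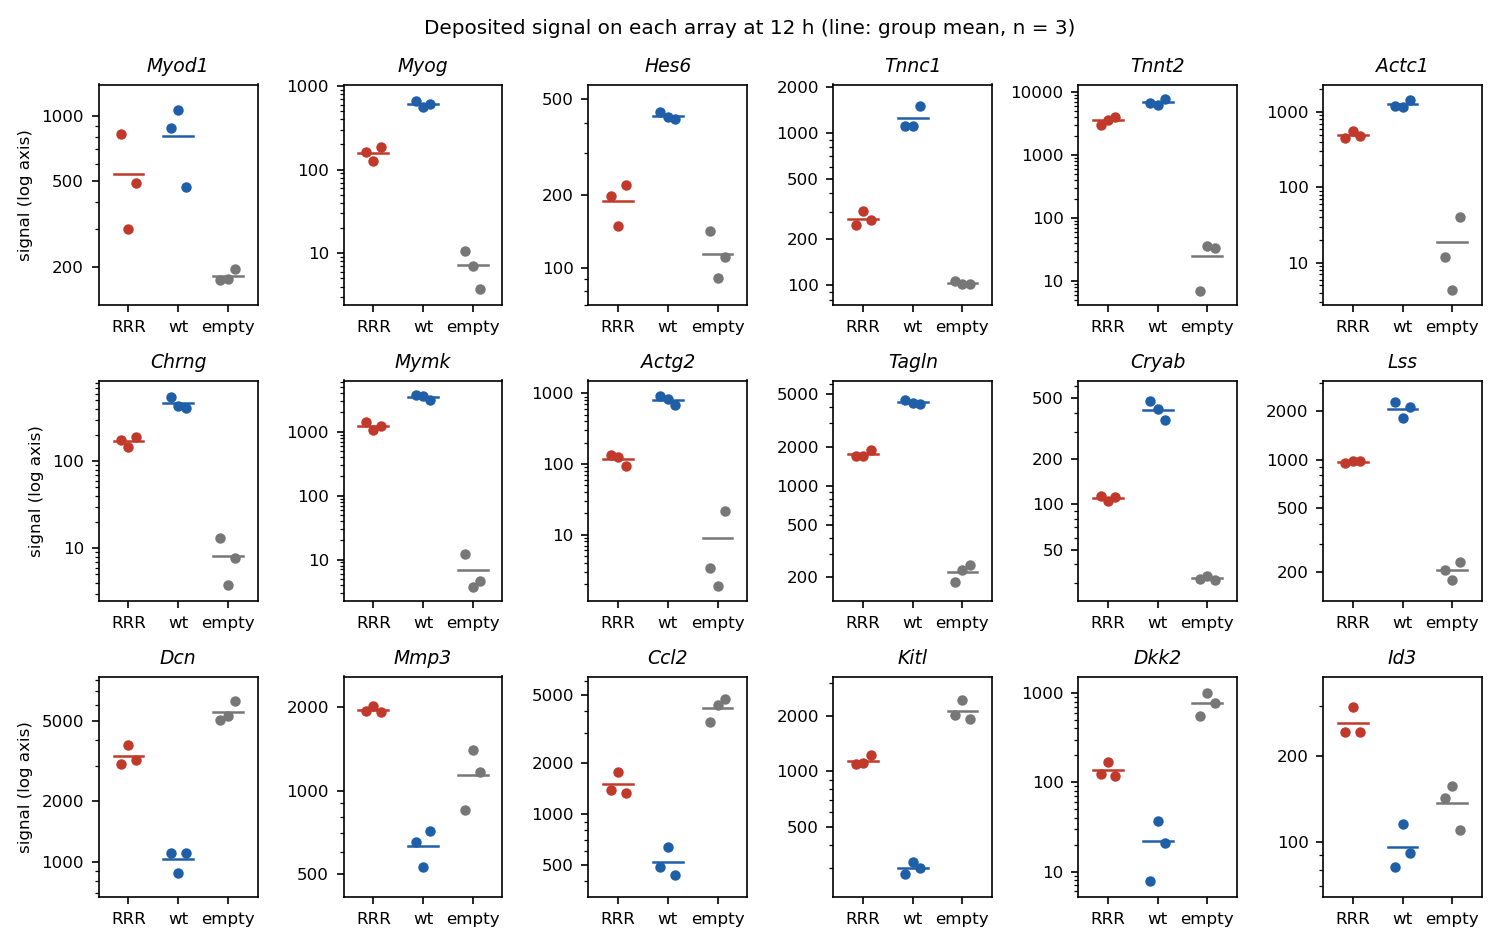
Deposited signal (log axis) of named genes on each 12 h array, with ER-MyoD RRR left of ER-MyoD wt and the empty retrovirus last; each point is 1 of 3 arrays and each line a group mean. The ER-MyoD RRR arrays of Tnnc1 and Myog sit between those of the other 2 groups without overlap, and Myod1 overlaps between ER-MyoD RRR and ER-MyoD wt.

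Of 34 Z-disc, M-band and myofibril assembly genes, 2 were lower and 1 was higher, with a median of -0.33. Ankrd2, a stretch-responsive ankyrin-repeat protein of the sarcomere, had signals of 37.1, 32.2 and 48.3 in ER-MyoD RRR and 192, 215 and 229 in ER-MyoD wt (-2.0 ± 0.38, adjusted p = 0.00319), and the ER-MyoD RRR arrays lay at the level of the empty retrovirus, 60.2, 31.1 and 34.6. Its relative Ankrd1, which serum and YAP are known to induce in fibroblasts, went the other way, at 590, 543 and 580 in ER-MyoD RRR and 340, 400 and 342 in ER-MyoD wt (0.62 ± 0.14, adjusted p = 0.0164). Obsl1 fell by 0.56 ± 0.15 (adjusted p = 0.0466). The call of Ankrd1 ended without RRR replicate 1 or 3 or wt replicate 1 or 3 (adjusted p up to 0.0954), and that of Obsl1 without any 1 of the 6 arrays (0.0576 to 0.208). Cryab, the alpha B crystallin that protects desmin and titin, was the 1 of 7 small heat shock proteins that passed. It was at 113, 105 and 112 in ER-MyoD RRR, against 477, 424 and 360 in ER-MyoD wt and 32.1, 33.6 and 31.2 with the empty retrovirus (-1.76 ± 0.24, adjusted p = 5.21e-05). Desmin itself (Des) was near the level of the empty retrovirus in both groups and did not pass (-0.24 ± 0.30, adjusted p = 0.887).

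The acetylcholine receptor and its scaffold were also lower: 4 of 16 genes of the neuromuscular junction passed, none higher, with a median of -0.39. Chrng, the embryonic gamma subunit, had signals of 176, 146 and 188 in ER-MyoD RRR, against 550, 430 and 411 in ER-MyoD wt and 13.1, 3.78 and 7.82 with the empty retrovirus (-1.35 ± 0.28, adjusted p = 0.00751). The delta subunit Chrnd was dim, at 7.66, 9.49 and 8.47 in ER-MyoD RRR and 35.5, 43.1 and 40.6 in ER-MyoD wt, and its ER-MyoD RRR arrays overlapped those of the empty retrovirus, 8.02, 7.22 and 6.50 (-1.19 ± 0.26, adjusted p = 0.0102). Rapsyn (Rapsn), which clusters the receptor, fell by 1.35 ± 0.31 (adjusted p = 0.0184) and the beta subunit Chrnb1 by 0.75 ± 0.18 (adjusted p = 0.0249). The alpha subunit Chrna1 was at 37.7, 50.6 and 59.0 in ER-MyoD RRR and 51.8, 57.1 and 84.2 in ER-MyoD wt and did not pass (-0.27 ± 0.32, adjusted p = 0.873). The call of Chrng ended without wt replicate 1 (adjusted p = 0.0717), that of Rapsn without any array but RRR replicate 1 (up to 0.11) and that of Chrnb1 without any array but RRR replicate 2 (up to 0.12).

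Of 30 genes of myoblast adhesion and fusion, 3 were lower and 1 was higher. Mymk encodes myomaker, the membrane protein that fusion requires, and had signals of 1394, 1048 and 1225 in ER-MyoD RRR, against 3723, 3646 and 3116 in ER-MyoD wt and 12.1, 3.75 and 4.56 with the empty retrovirus. It fell by 1.53 ± 0.26 (adjusted p = 0.000618), while both ER-MyoD groups stayed far above the empty retrovirus. With a pseudocount of 1 Mymk did not pass (adjusted p = 0.115). M-cadherin (Cdh15) was at 745, 678 and 761 in ER-MyoD RRR and 1700, 1613 and 1413 in ER-MyoD wt (-1.07 ± 0.17, adjusted p = 0.000271). Megf10, a receptor of muscle satellite cells, fell by 1.05 ± 0.25 (adjusted p = 0.0201), a call that ended without any 1 of the 6 arrays (0.0504 to 0.103). Vcam1, an adhesion molecule of fibroblasts and myoblasts, was the higher one, at 1038, 1070 and 1209 in ER-MyoD RRR, against 528, 520 and 656 in ER-MyoD wt and 1072, 1288 and 994 with the empty retrovirus (0.91 ± 0.12, adjusted p = 2.25e-05). Its ER-MyoD RRR arrays lay within the range of the empty retrovirus.

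Energy metabolism of muscle had 3 of 22 members lower and none higher. Eno3, the muscle enolase, was at 231, 223 and 214 in ER-MyoD RRR and 418, 433 and 405 in ER-MyoD wt (-0.87 ± 0.15, adjusted p = 0.000819), Mss51, a mitochondrial protein of muscle, fell by 1.70 ± 0.34 (adjusted p = 0.00527) and the creatine kinase Ckb by 0.67 ± 0.13 (adjusted p = 0.00397). The call of Mss51 ended without RRR replicate 3 (adjusted p = 0.0629). Of 25 calcium and excitation genes 1 passed, the calcium buffer Pvalb (-1.0 ± 0.24, adjusted p = 0.023), and of 18 dystrophin complex and costamere genes 1, the talin Tln2 (-0.79 ± 0.19, adjusted p = 0.0246). Without RRR replicate 1 or 3 or wt replicate 3 Pvalb no longer passed (up to 0.161), and Tln2 did not pass without RRR replicate 1 or 3 or wt replicate 1 or 3 (up to 0.198).

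Smooth muscle genes, many of which embryonic muscle and myofibroblasts also use, had 4 of 20 members lower and none higher, with a median of -0.29. Actg2, the enteric smooth muscle actin, had signals of 135, 126 and 93.4 in ER-MyoD RRR, against 927, 828 and 680 in ER-MyoD wt and 3.37, 1.86 and 21.6 with the empty retrovirus, and fell by 2.58 ± 0.27 (adjusted p = 7.05e-07). Tagln, the actin-binding protein transgelin, was at 1693, 1707 and 1890 in ER-MyoD RRR and 4539, 4339 and 4191 in ER-MyoD wt (-1.30 ± 0.17, adjusted p = 1.19e-05). The myosin light chain Myl9 fell by 1.47 ± 0.28 (adjusted p = 0.00341) and smooth muscle actin Acta2 by 0.57 ± 0.10 (adjusted p = 0.0012). Acta2 was not called with median centring (adjusted p = 0.387), the deposited scaling (0.075), the 6 arrays alone (0.0657) or the mean of all probe sets (0.0825). The summed signal of the 20 genes was 14094 to 15694 in ER-MyoD RRR, 21326 to 21804 in ER-MyoD wt and 8369 to 9545 with the empty retrovirus, without overlap. Much of it came from Acta2, with means of 6248 in ER-MyoD RRR and 9481 in ER-MyoD wt, and from Tagln, with means of 1763 and 4356. The sum therefore follows these called genes and does not show a fall across the list.

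Outside the fixed lists, the largest fall was that of Slc22a4, an organic cation transporter, at 24.6, 4.78 and 5.79 in ER-MyoD RRR, against 213, 124 and 133 in ER-MyoD wt and 4.94, 2.40 and 5.16 with the empty retrovirus (-2.65 ± 0.29, adjusted p = 1.6e-06). Of its 3 ER-MyoD RRR arrays 2 were thus at the level of the empty retrovirus. The signalling ligand Wnt4 was at 23.0, 10.8 and 18.7 in ER-MyoD RRR and 167, 117 and 137 in ER-MyoD wt (-2.20 ± 0.37, adjusted p = 0.000651), again near the empty retrovirus at 40.4, 8.47 and 2.92. Plpp7, a nuclear envelope protein of muscle, fell by 1.96 ± 0.24 (adjusted p = 6.3e-06), the tetraspanin Tspan33 by 1.68 ± 0.33 (adjusted p = 0.00452) and Asb10, a substrate adaptor of ubiquitin ligases, by 1.63 ± 0.31 (adjusted p = 0.00291). Osgin1 and Fndc5 completed the 15 largest falls at -1.79 ± 0.47 and -1.78 ± 0.45, with adjusted p-values of 0.0471 and 0.0381. Their calls ended without most single arrays, Osgin1 without any but RRR replicate 1 (up to 0.352) and Fndc5 likewise (up to 0.163).

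Enzymes of sterol synthesis, which wild-type MyoD raised over the empty retrovirus, were lower in ER-MyoD RRR. Of 20 measured, 5 passed and none was higher, and the median of -0.50 compares with 0.01 over all genes. Lanosterol synthase (Lss) had signals of 950, 977 and 985 in ER-MyoD RRR, against 2279, 1828 and 2121 in ER-MyoD wt and 208, 180 and 233 with the empty retrovirus (-1.06 ± 0.13, adjusted p = 6.1e-06). Hsd17b7 fell by 0.94 ± 0.14 (adjusted p = 0.000105), Nsdhl by 0.58 ± 0.12 (adjusted p = 0.00751) and Idi1 by 0.66 ± 0.16 (adjusted p = 0.0292). The mean of all probe sets did not call Hsd17b7 (-0.49, adjusted p = 0.13), and single arrays ended the calls of Nsdhl (without ER-MyoD RRR or wt replicate 1, adjusted p up to 0.0931) and Idi1 (without any but RRR replicate 3, up to 0.165). Idi2, a second isopentenyl diphosphate isomerase gene outside the list, was at 65.9, 83.4 and 59.8 in ER-MyoD RRR, against 217, 207 and 253 in ER-MyoD wt and 3.10, 2.21 and 2.61 with the empty retrovirus (-1.44 ± 0.19, adjusted p = 2.1e-05). Fatty acid synthesis had 2 of 14 members lower, fatty acid synthase (Fasn, -0.71 ± 0.12, adjusted p = 0.00104) and the desaturase Scd1 (-0.57 ± 0.12, adjusted p = 0.0062). Fasn was not called with median centring (0.0636) or the 6 arrays alone (0.0549), nor Scd1 with median centring (0.218) or without wt replicate 1 (0.0754).

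**Figure D3:**
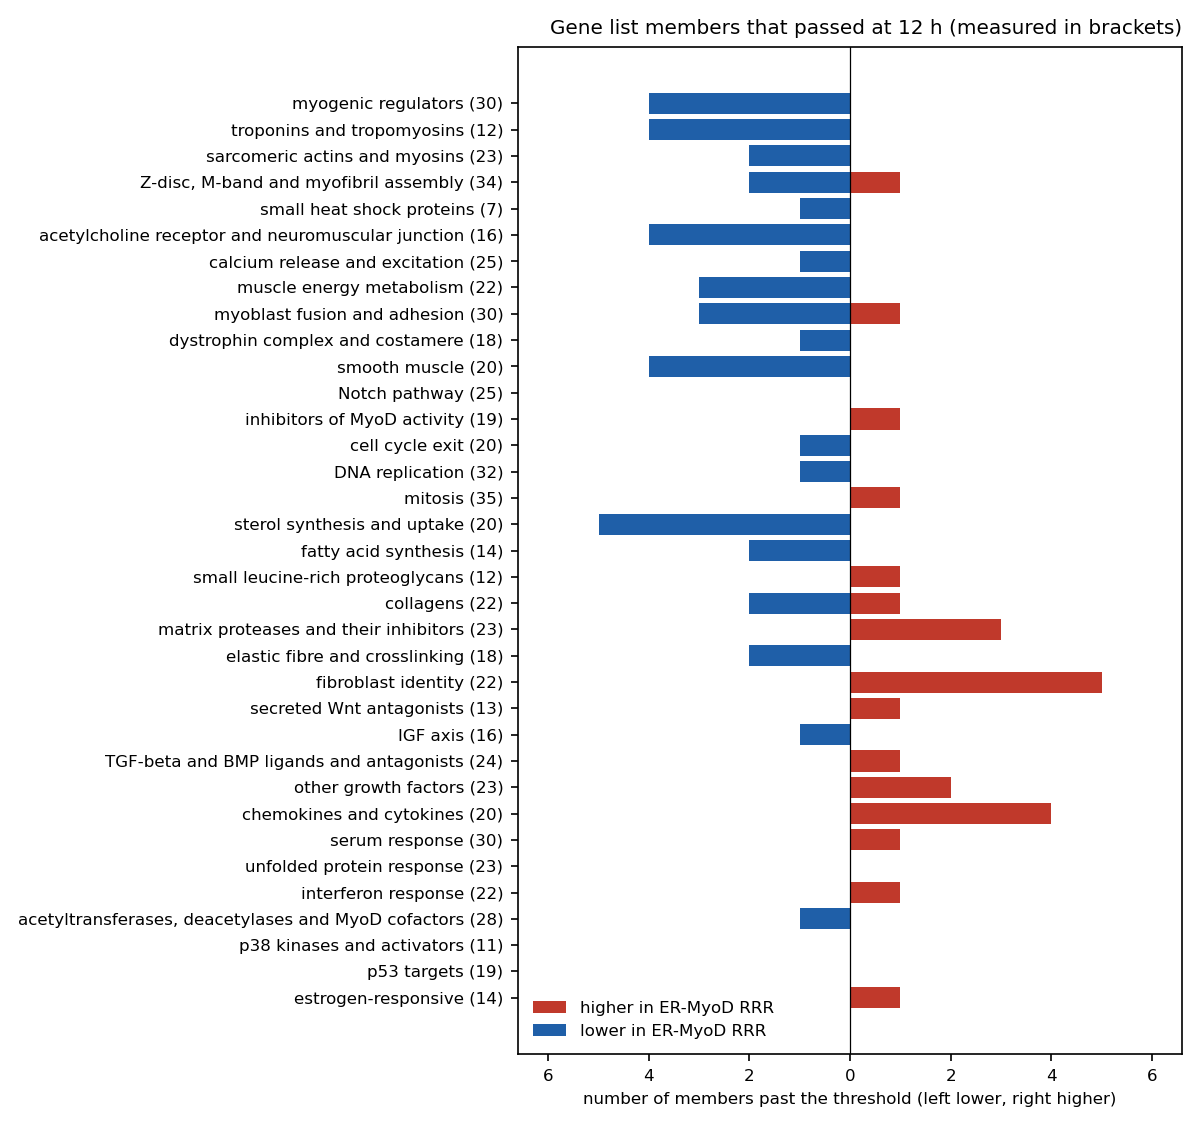
Number of members of each gene list that passed at 12 h, lower in ER-MyoD RRR to the left and higher to the right, with the number of genes measured in brackets. Muscle, smooth muscle and sterol lists have members on the left only or mostly, and fibroblast, chemokine and protease lists on the right only.

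Genes of fibroblast identity had 5 of 22 members higher in ER-MyoD RRR and none lower, with a median of 0.18. Prrx1, a homeobox factor of limb and body wall mesenchyme, had signals of 1200, 1271 and 1272 in ER-MyoD RRR, against 583, 588 and 609 in ER-MyoD wt and 1640, 2294 and 2088 with the empty retrovirus (1.01 ± 0.12, adjusted p = 4.54e-06). Dermatopontin (Dpt), a matrix protein that binds decorin, was at 2310, 3315 and 2627 in ER-MyoD RRR and 1312, 1042 and 1873 in ER-MyoD wt (1.01 ± 0.14, adjusted p = 3.21e-05). In both genes the ER-MyoD RRR arrays lay between the other 2 groups without overlap. The PDGF receptor Pdgfra (1.53 ± 0.41, adjusted p = 0.0471), the surface protein Cd34 (1.30 ± 0.34, adjusted p = 0.0471) and the nuclear factor Nfib (1.10 ± 0.27, adjusted p = 0.0314) passed nearer the threshold. Without 1 array these 3 often did not pass: Pdgfra without RRR replicate 2 or 3 or wt replicate 2 (adjusted p up to 0.387), Cd34 without any 1 of the 6 (0.0583 to 0.234) and Nfib without any but wt replicate 3 (up to 0.295). The means of all probe sets were 0.61 for Pdgfra and 0.59 for Nfib and did not pass (adjusted p = 0.247 and 0.17). The other members of the list, vimentin, Thy1 and Pdgfrb among them, did not pass. The 10 embryonic fibroblast markers were split, with a median of 0.01, 5 above 0 and 5 below it, from Col1a1 at -0.41 to Col3a1 at 0.73, the only one that passed. Of the adipocyte marker list, none of 11 measured passed, and its summed signal was 900.3 to 1041 in ER-MyoD RRR, 789.9 to 852 in ER-MyoD wt and 1153 to 1616 with the empty retrovirus, most of it from lipoprotein lipase (Lpl). Its part in the fibroblast result was not tested. None of the cardiac, cartilage and bone, neuronal, macrophage, endothelial and epithelial markers measured passed either.

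In the matrix, decorin, a proteoglycan that binds collagen and TGF-beta, was the one family member that passed. Dcn had signals of 3043, 3781 and 3194 in ER-MyoD RRR, against 1111, 881 and 1108 in ER-MyoD wt and 5038, 5319 and 6275 with the empty retrovirus (1.71 ± 0.13, adjusted p = 1.11e-09). The other 11 small leucine-rich proteoglycans measured did not pass. Collagens split, with Col3a1 higher (4299, 5164 and 3866 in ER-MyoD RRR and 2615, 2566 and 3067 in ER-MyoD wt, 0.73 ± 0.11, adjusted p = 0.000271) and Col12a1 (-1.40 ± 0.26, adjusted p = 0.00284) and Col4a1 (-0.58 ± 0.12, adjusted p = 0.00616) lower, of 22 measured. Median centring did not call Col3a1 (0.71, adjusted p = 0.185), the mean of all probe sets did not call Col12a1 (-0.62, adjusted p = 0.173), and Col4a1 was not called without RRR replicate 3 (0.0593) or wt replicate 1 (0.0565). Elastic fibre genes had 2 of 18 lower, Fbln5 (-0.73 ± 0.12, adjusted p = 0.000445) and the crosslinking enzyme Lox (-0.54 ± 0.13, adjusted p = 0.027). The mean of all probe sets was -0.19 for Fbln5 (adjusted p = 0.846), and Lox was not called without ER-MyoD RRR or wt replicate 1 or 2 (up to 0.154). P4ha2, a subunit of collagen prolyl hydroxylase, was at 397, 373 and 461 in ER-MyoD RRR, against 923, 852 and 789 in ER-MyoD wt and 397, 427 and 418 with the empty retrovirus, and fell by 1.03 ± 0.11 (adjusted p = 8.19e-07).

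Matrix proteases had 3 of 23 members higher and none lower. Mmp3, which degrades matrix proteins and activates other proteases, had signals of 1946, 2013 and 1917 in ER-MyoD RRR, against 654, 527 and 713 in ER-MyoD wt and 853, 1400 and 1168 with the empty retrovirus. It was thus above both other groups (1.61 ± 0.14, adjusted p = 4.68e-08). The plasminogen activator Plat rose by 0.92 ± 0.16 (adjusted p = 0.00119) and the membrane protease Mmp14 by 0.69 ± 0.17 (adjusted p = 0.0352). The means of all probe sets were 0.45 for Plat and 0.41 for Mmp14 and did not pass (adjusted p = 0.478 and 0.685), and with single arrays left out Mmp14 was called only without RRR replicate 2 (otherwise up to 0.167).

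Among secreted signals, chemokines and single other genes were higher, while the medians of the secreted Wnt antagonist and IGF axis lists were -0.10 and -0.15. Of 20 chemokines and cytokines, 4 were higher and none lower, with a median of 0.15: Ccl2, which attracts monocytes, had signals of 1372, 1765 and 1323 in ER-MyoD RRR, against 488, 635 and 435 in ER-MyoD wt and 3471, 4370 and 4745 with the empty retrovirus (1.45 ± 0.11, adjusted p = 2.39e-09). Its neighbour in function Ccl7 was at 659, 551 and 692 in ER-MyoD RRR and 275, 240 and 233 in ER-MyoD wt (1.25 ± 0.16, adjusted p = 1.28e-05). Cxcl1 and Cxcl12 rose by 0.81 ± 0.20 and 0.51 ± 0.13 (adjusted p = 0.0314 and 0.0388), but Cxcl1 did not pass without any array but RRR replicate 3 (up to 0.143) and Cxcl12 without any 1 of the 6 (0.0598 to 0.207). Their means of all probe sets were 0.39 and 0.30 and did not pass (adjusted p = 0.218 and 0.232). The Wnt antagonist Dkk2 had the largest rise among genes that passed with arrays that did not overlap, at 124, 171 and 117 in ER-MyoD RRR, against 7.86, 37.0 and 20.7 in ER-MyoD wt and 550, 998 and 771 with the empty retrovirus (2.06 ± 0.25, adjusted p = 6.3e-06), and the other 12 secreted Wnt antagonists measured did not pass. Kit ligand (Kitl) was at 1095, 1107 and 1218 in ER-MyoD RRR, against 279, 323 and 300 in ER-MyoD wt and 2019, 2431 and 1917 with the empty retrovirus (1.81 ± 0.20, adjusted p = 1.71e-06). The EGF family ligand Ereg rose by 0.81 ± 0.21 (adjusted p = 0.0418), a call that ended without any 1 of the 6 arrays (0.0652 to 0.171). Igf1, which promotes muscle growth, was lower, at 53.6, 77.8 and 59.0 in ER-MyoD RRR, 141, 158 and 168 in ER-MyoD wt and 92.3, 94.2 and 62.9 with the empty retrovirus (-1.07 ± 0.21, adjusted p = 0.00411).

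Among 19 inhibitors of MyoD activity, 1 passed. Id3, a helix-loop-helix protein without a DNA-binding part that sequesters the E protein partners of MyoD, had signals of 242, 296 and 242 in ER-MyoD RRR, against 82.0, 116 and 91.4 in ER-MyoD wt and 143, 157 and 110 with the empty retrovirus (1.24 ± 0.19, adjusted p = 0.000221). The ER-MyoD RRR arrays were above both other groups. The list median was 0.24, and Id1 and Id2 lay at 0.66 and 0.80 without passing. Cited2, a transcriptional coregulator that binds p300 and CBP, was at 314, 327 and 278 in ER-MyoD RRR and 128, 157 and 127 in ER-MyoD wt (1.03 ± 0.11, adjusted p = 1.71e-06), and the mean of all its probe sets narrowly missed the threshold (0.65, adjusted p = 0.054). Of 28 acetyltransferases, deacetylases and MyoD cofactors, 1 passed: Smarcd3, the BAF60C subunit of the SWI/SNF remodelling complex that works with MyoD, was at 373, 427 and 326 in ER-MyoD RRR and 660, 656 and 696 in ER-MyoD wt (-0.81 ± 0.16, adjusted p = 0.00527), and it did not pass without RRR replicate 3 (0.0524). The acetyltransferases themselves, Ep300, Crebbp and Kat2b, were at 0.38, -0.03 and -0.07 and did not pass. None of 25 Notch pathway genes, 23 unfolded protein response genes, 11 p38 kinases and activators or 19 p53 targets passed.

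Proliferation genes differed little in size, with medians of 0.09 for 32 DNA replication genes and 0.10 for 35 mitosis genes, but most were on the higher side, 26 of the 32 and 25 of the 35, against 9430 of all 18193 genes. Gins3, of the replicative helicase, was lower (-0.70 ± 0.16, adjusted p = 0.0137), and Ccnb2, a mitotic cyclin, was higher (0.43 ± 0.11, adjusted p = 0.0406). Gins3 did not pass without RRR replicate 1 or wt replicate 1 or 3 (up to 0.123), nor Ccnb2 without any 1 of the 6 arrays (0.0823 to 0.159). Single members of other lists passed as well, all higher: the TGF-beta inhibitor Smad7 (1.05 ± 0.27, adjusted p = 0.0385), the growth factor feedback inhibitor Spry2 (1.0 ± 0.26, adjusted p = 0.0457) and the interferon-induced Ifit2 (0.98 ± 0.20, adjusted p = 0.00599). Each was the only member of its list to pass, of 24, 30 and 22 measured in that order, against 0.874% of all genes higher. The medians of these lists were 0.05, 0.25 and 0.02. Smad7 did not pass without any 1 of the 6 arrays (0.0587 to 0.24), Spry2 without any but wt replicate 3 (up to 0.287) and Ifit2 without wt replicate 1 (0.0821).

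The remaining large rises lay outside the lists. Meak7, which acts in mTOR signalling, had signals of 83.5, 62.8 and 137 in ER-MyoD RRR, against 10.8, 17.4 and 6.37 in ER-MyoD wt and 140, 148 and 120 with the empty retrovirus (1.98 ± 0.36, adjusted p = 0.00185). The protocadherin Pcdh7 was at 462, 411 and 409 in ER-MyoD RRR, against 147, 129 and 173 in ER-MyoD wt and 282, 399 and 325 with the empty retrovirus (1.39 ± 0.15, adjusted p = 1.3e-06), and the dynactin-associated protein Dynap rose by 1.59 ± 0.31 (adjusted p = 0.00411). Ces5a, Tns2, Hspa12b, Nr4a2, Wdr60 and Rcan2 rose by 1.39 to 1.69 with adjusted p-values of 0.012 to 0.042. Each of these 6 calls was lost without some single arrays, Hspa12b without 3 (RRR replicate 3, wt replicates 2 and 3, up to 0.0906) and Nr4a2 without any 1 of them (0.0786 to 0.175). For Ces5a, Tns2, Wdr60 and Rcan2, each lost without 4 or 5 single arrays, the highest adjusted p was 0.175, 0.218, 0.219 and 0.206, without wt replicate 1 for all but Wdr60, where it was wt replicate 2.

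To relate the comparison to what wild-type MyoD did, genes were classed by arrays that the comparison does not use, as at least 2-fold higher or lower in ER-MyoD wt than with the empty retrovirus at 24 h and past the threshold there, where 25.4% of all genes passed. The class threshold and the 12 h test share the estimate of spread for each gene. Genes of low spread pass both more readily, so the shares below are descriptions. Of 946 genes so induced at 24 h, 98 were lower in ER-MyoD RRR than in ER-MyoD wt at 12 h (10.4%, against 0.879% of all genes) and 0 were higher. Of 1231 genes so repressed, 105 were higher (8.53%, against 0.874% of all genes) and 5 were lower. The medians of the 2 classes were -0.28 and 0.25, against 0.01 over all genes and over the 16016 genes of neither class. Seen from the other side, 61.2% of the lower genes were induced genes and 66% of the higher ones repressed genes. In place of 98 and 105, median centring gave 47 and 44, and array quality weights 154 and 169. Without RRR replicate 1, 2 or 3 the counts were 75, 68 or 62 induced genes lower and 66, 50 or 58 repressed genes higher, and without wt replicate 1, 2 or 3 they were 59, 68 or 74 and 47, 53 or 84.

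Beside the empty retrovirus at 12 h, the mean of ER-MyoD RRR lay between ER-MyoD wt and the empty retrovirus for 123 of the 160 lower genes and 97 of the 159 higher genes. It lay beyond the empty retrovirus for 35 lower and 46 higher genes, as for Mmp3 and Id3. In the remaining 2 lower and 16 higher genes ER-MyoD wt lay between the others. These positions share the ER-MyoD RRR and ER-MyoD wt arrays with the choice of genes and are a description. Against the empty retrovirus, 10.1% of all genes passed in ER-MyoD RRR (5.11% higher and 4.97% lower) and 15.4% in ER-MyoD wt (7.16% higher and 8.26% lower). The 2 comparisons share the empty retrovirus arrays. Myog was 2.98 ± 0.22 above the empty retrovirus in ER-MyoD RRR and 4.82 ± 0.22 above it in ER-MyoD wt. Mymk was 5.80 ± 0.26 above it in ER-MyoD RRR and 7.33 ± 0.26 in ER-MyoD wt, and Ccl2 was at -1.62 ± 0.11 in ER-MyoD RRR and -3.07 ± 0.11 in ER-MyoD wt.

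The same comparison at 6 and 24 h, on other arrays, shows which 12 h differences recurred. Its tests share with those at 12 h the estimate of spread for each gene. At 6 h 3.66% of all genes passed, 1.63% higher and 2.03% lower, and at 24 h 5.37%, 3.34% higher and 2.03% lower. Of the 160 genes lower at 12 h, 61 were also lower at 6 h (38.1% of them, and 16.5% of those lower at 6 h) and 72 at 24 h (45% of them, and 19.5% of those lower at 24 h). Of the 159 higher genes, 46 were higher at 6 h (28.9%, and 15.5% of the 6 h genes) and 96 at 24 h (60.4%, and 15.8% of the 24 h genes). At all 3 times 27 genes were lower, among them Tnnc1, Actg2, Tagln, Cdh15, Lss, Hsd17b7, Eno3, Ankrd2 and Asb10. Higher at all 3 times were 33 genes, among them Dcn, Ccl2, Ccl7, Mmp3, Id3, Vcam1, Dpt, Plat, Pcdh7 and Cited2. Opposite calls were few: 2 genes higher at 12 h were lower at 6 h, and 3 genes lower at 12 h were higher at 24 h.

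**Figure D4:**
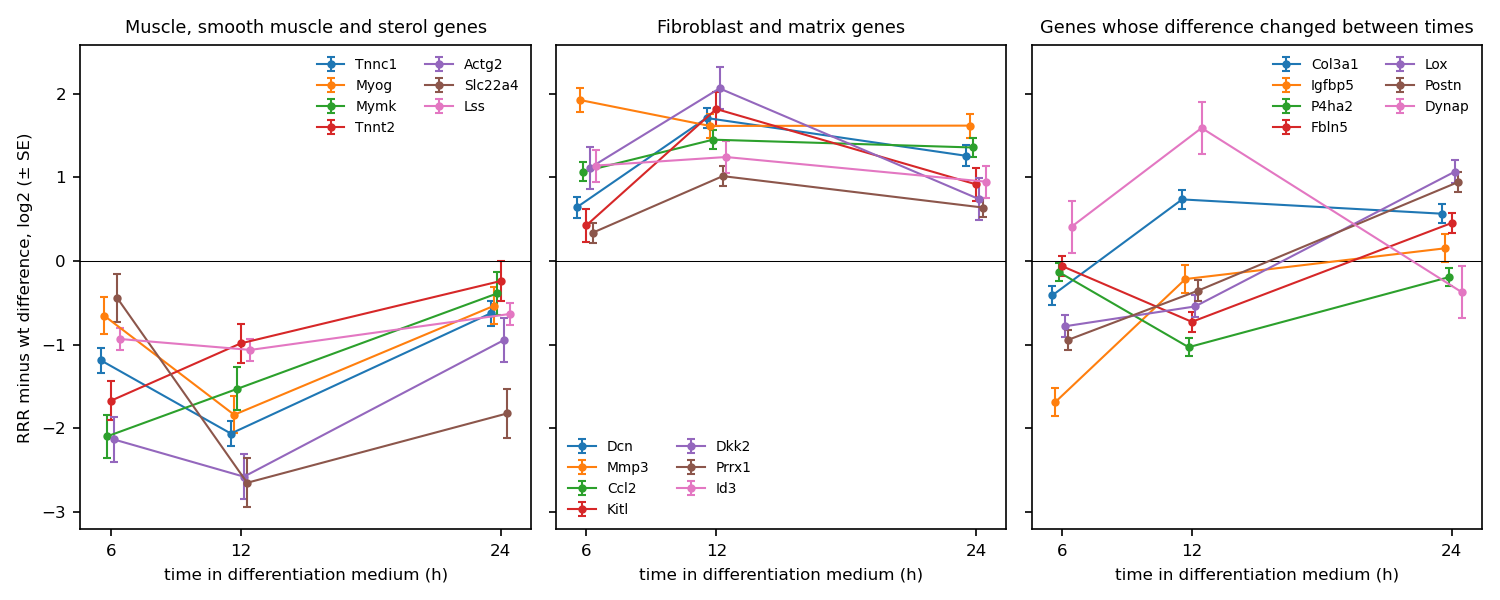
Log2 difference between ER-MyoD RRR and ER-MyoD wt at 6, 12 and 24 h for named genes, with bars of ± 1 SE (3 arrays a group). Tnnc1 runs through -1.19, -2.06 and -0.63, Mmp3 stays at 1.92, 1.61 and 1.62, and Lox and Postn lie below 0 at 6 and 12 h and above it at 24 h.

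Whether the difference itself changed between times was tested with interaction terms. Between 6 and 12 h it changed for 37 genes, upward in 28 (0.154% of those tested) and downward in 9 (0.0495%). Col3a1 was lower in ER-MyoD RRR at 6 h (-0.41) and higher at 12 h (0.73), a change of 1.15 ± 0.16 (adjusted p = 0.00242). The growth factor binding protein Igfbp5 was at -1.69 at 6 h and -0.22 at 12 h (change 1.47 ± 0.23, adjusted p = 0.00721), and Dcn at 0.64 and 1.71 (change 1.07 ± 0.18, adjusted p = 0.00721). In the other direction, Slc22a4 was at -0.44 at 6 h and -2.65 at 12 h (change -2.21 ± 0.41, adjusted p = 0.0156), Plpp7 at 0.04 and -1.96 (change -2.0 ± 0.34, adjusted p = 0.00721) and P4ha2 at -0.13 and -1.03 (change -0.90 ± 0.15, adjusted p = 0.00721). Myog, at -0.66 at 6 h and -1.84 at 12 h, did not pass this test (change -1.18 ± 0.32, adjusted p = 0.119). The count was 0 with median centring and 357 without the 3 arrays that stood apart. It was 21, 15 or 10 without RRR replicate 1, 2 or 3 of 12 h and 11, 47 or 15 without wt replicate 1, 2 or 3.

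Between 12 and 24 h the difference changed for 56 genes, upward in 52 (0.286%) and downward in 4 (0.022%). Tnnc1 was at -2.06 at 12 h and -0.63 at 24 h (change 1.44 ± 0.21, adjusted p = 0.000919), and Fbln5 at -0.73 and 0.45 (change 1.18 ± 0.17, adjusted p = 0.000827). Lox was at -0.54 and 1.07 (change 1.61 ± 0.19, adjusted p = 5.57e-05), so that this collagen crosslinking gene was lower in ER-MyoD RRR at 12 h and higher at 24 h. Postn, a matrix protein, was at -0.35 and 0.94 (change 1.30 ± 0.17, adjusted p = 0.000349), and Igf1 at -1.07 and 0.48 (change 1.55 ± 0.30, adjusted p = 0.0139). Downward, Dynap was at 1.59 and -0.37 (change -1.96 ± 0.44, adjusted p = 0.0466). Myog (change 1.30 ± 0.32, adjusted p = 0.0759) and Mymk (change 1.14 ± 0.36, adjusted p = 0.245) did not pass. The count was 1 with median centring and 94 without the 3 arrays that stood apart. Without RRR replicate 1, 2 or 3 of 12 h it was 39, 33 or 34, and without wt replicate 1, 2 or 3 it was 31, 42 or 36.

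Genes with several probe sets gave a further check within the arrays. For 60 of the named genes 123 other probe sets were measured, of which 102 differed in the same direction as the one used and 21 in the opposite one. For the 47 of these genes that passed, the counts were 83 and 14 of 97. Adjusted over probe sets, 11 passed in the same direction and 0 in the opposite one, all 11 for genes that passed. Leaving out probe sets whose mean signals in ER-MyoD RRR and ER-MyoD wt summed to under 100, 81 remained for 46 genes, 72 in the same direction and 9 in the opposite one. The other probe sets of Hes6, Cryab and Prrx1 all lay on the same side as the one used, and that of Col3a1 was at 0.72 beside 0.73. Those of Cryab were at -1.43 and -0.01, the second no difference, against -1.76 for the one used. For Prrx1 they ran from 0.20 to 0.98, against 1.01. For Kitl, the others were at 1.38, 0.43 and -0.01, against 1.81 for the one used. For Nr4a2, 1 other probe set was at -0.90 and the rest at 0.19 to 0.66, none of which passed, against 1.46 for the one used.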

How the data were processed

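Total RNA was labelled with biotin and measured on 1-colour mouse oligonucleotide arrays, per the labels, with 30 arrays in 10 groups of 3. The authors deposited linear signal intensities for each probe set (0.0474 to 20986). Which software made them is not given in the sources used here. Each array had a mean of 150 once its brightest 2% and dimmest 2% of probe sets were set aside, which shows that arrays had been scaled to a common level before deposit, and a gene's signal is relative to that level. The number of arrays limits the precision.

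Control probe sets (64) were left out. Of the other 45037, 34945 had 1 gene symbol in the platform annotation, 932 several and 9160 none here. The brightest probe set of each gene over all arrays represented it, giving 18193 genes. Values were log2(signal + 16), quantile-normalised, and fitted with limma 3.58.1 in R 4.3.3 (lmFit, eBayes with trend, 1 mean per group, 20 residual degrees of freedom, two-sided). All 30 arrays entered the fit so that the spread was estimated over all groups, and Benjamini-Hochberg adjustment ran over all genes of a contrast. The fit was tested on simulated data, with 67, 67 and 66 of 18193 genes changed by 0.5, 1 and 2 log2. It recovered 4.48%, 43.3% and 97% of them in that order. Genes that did not pass may therefore still differ. Same-numbered ER-MyoD RRR and ER-MyoD wt arrays of the comparison had deviations from their group means that correlated at 0.064, -0.0885 and 0.00423. Those of differently numbered arrays correlated at -0.122 to 0.108, so same-numbered arrays were not more alike. With so few arrays a group, these values cannot decide whether the numbers paired the samples.

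The gene lists and the comparison were chosen with earlier results of these data known. Named genes were Myod1 and Myf5, 14 fixed genes of muscle differentiation, the 15 largest rises and 15 largest falls among genes that passed with arrays that did not overlap, up to 4 members of each of 43 lists that passed with the smallest p, and 6 genes a direction of each interaction. Mvd, a sterol gene outside this rule that passed, is counted only. Alternatives were other scalings, pseudocounts of 1 and 64, a mean signal filter of 50, the 6 arrays alone, a replicate block, the mean of all probe sets, no trend, array quality weights and each array left out. Leaving out the 3 arrays that stood apart was chosen after seeing the data. Promoter windows and E-boxes came from RefSeq tables on GRCm38.p6.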

Additional observations from a re-analysis of the deposited data

Results flagged for a closer look

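The difference between ER-MyoD RRR and ER-MyoD wt was itself tested between times, and the genes with a changed difference are given here as values. From 6 to 12 h the log2 difference moved up in 28 genes and down in 9. The 6 upward genes with the smallest p were Col3a1 (1.15), Igfbp5 (1.47), Dcn (1.07), the translation factor subunit Eif3a (1.06), topoisomerase Top1 (1.14) and the calcium pump Atp2b1 (1.52). At 12 h itself Atp2b1 was higher in ER-MyoD RRR (0.70 ± 0.18, adjusted p = 0.0448), a call that ended without any 1 of the 6 arrays (0.087 to 0.218), while Eif3a and Top1 did not pass. The 6 downward genes were Plpp7 (-2.0), P4ha2 (-0.90), Slc22a4 (-2.21), Idi2 (-1.37), the glycosidase Mogs (-0.81) and the methionyl-tRNA synthetase Mars1 (-0.71).

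From 12 to 24 h the difference moved up in 52 genes and down in 4. The 6 upward genes with the smallest p were Lox (1.61), Postn (1.30), Fbln5 (1.18), Tnnc1 (1.44), the GDNF receptor Gfra1 (1.27) and the raft protein Rftn1 (1.15). Of these, Rftn1 was lower in ER-MyoD RRR at 12 h (-0.54 ± 0.13, adjusted p = 0.0246), not called without any array but RRR replicate 3 (up to 0.14). All 4 downward genes are the cathepsin Ctsl (-0.70), the dynein light chain Dynlt3 (-1.03), Dynap (-1.96) and the DNA repair protein Xrcc6 (-0.80). Ctsl was higher in ER-MyoD RRR at 12 h (0.62 ± 0.10, adjusted p = 0.000441), and Dynlt3 and Xrcc6 did not pass there. Ctsl was not called with median centring (0.233), the 6 arrays alone (0.0763) or the mean of all probe sets (0.362). Adjusted p-values of these 4 changes lay between 0.0223 and 0.0485.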

How the results depend on the processing

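The main counts were 159 genes higher and 160 lower, 37 and 56 genes with a difference that changed from 6 to 12 h and from 12 to 24 h, 98 induced genes lower and 105 repressed genes higher. Median centring gave 65, 63, 0, 1, 47 and 44 in that order, and array quality weights 297, 287, 269, 137, 154 and 169; the cause was not tested. Without the 3 arrays that stood apart, an alternative chosen after seeing the data, the first 4 counts were 252, 246, 357 and 94. The 6 arrays alone gave 96 higher genes. The count from 6 to 12 h was 64 among genes with a mean signal of at least 50, 79 with the replicate block, 14 with the mean of all probe sets and 13 without the trend. From 12 to 24 h it was 31 with the deposited scaling, 27 with the mean of all probe sets and 25 without the trend, and the mean of all probe sets gave 66 repressed genes higher. Leaving out 1 of the 6 arrays gave 70 to 117 higher and 81 to 109 lower genes, 10 to 47 and 31 to 42 for the changes between times, 59 to 75 induced genes lower and 47 to 84 repressed genes higher.

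No named gene that passed reversed its direction under any of the 17 settings that tested it. Reversals were among genes that did not pass: with the mean of all probe sets Mef2c was at 0.0277, Eif3a at -0.0244 and Xrcc6 at 0.24. With 1 of the 6 arrays left out, Mef2c ranged from -0.18 to 0.00708 and Myh3 from -0.79 to 0.0455 (both above 0 without wt replicate 1), and Dynlt3 from -0.0394 (without RRR replicate 3) to 0.19. Median centring ended 38 of the 90 named calls, the mean of all probe sets 31 and the 6 arrays alone 26. The replicate block ended 1 (Osgin1, adjusted p = 0.053) and added 1 (Cdkn1a, adjusted p = 0.0152). The median of all genes was 0.01 with quantile normalisation, 0.01 as deposited and 0.03 with median centring. Dim genes with signals under about 50 are limited by background, and their fold depends on the pseudocount: Slc22a4 was at -3.86 with a pseudocount of 1 and -1.53 with 64.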

Other observations

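Probe sets that the annotation does not tie to a single symbol were tested in a fit over all probe sets. Of 9160 without a symbol here, 12 were higher and 5 lower in ER-MyoD RRR than in ER-MyoD wt at 12 h, and of 932 with several symbols 4 were higher and 2 lower. Of 34945 with 1 symbol, 127 were higher and 145 lower in the same fit over probe sets. The macrophage colony-stimulating factor receptor Csf1r averaged 345 in ER-MyoD RRR, 493 in ER-MyoD wt and 128 with the empty retrovirus, the brightest of 12 macrophage and blood markers in each of these groups, and none of the 12 passed between ER-MyoD RRR and ER-MyoD wt.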
